A study of Mus musculus with 10 samples.

Results

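The genes described here are 35 enzymes, transporters and glycogen-binding subunits of sugar metabolism: 3 carriers of glucose or lactate, 19 genes of glycolysis, 7 of the pentose phosphate pathway and 6 of glycogen turnover. They were taken as a named list, matched by symbol, out of 29893 genes to which transcripts could be summed. The list was chosen with earlier results of these data known. All 35 were found and passed the filter on low counts. RNA came from neutrophils and from CCR2+ monocytes of NOD/scid mice, an immunodeficient strain, that bore a breast tumour to end point; both populations were sorted by flow cytometry from the lungs. The tumours were HCl-001, called TN1 and labelled highly metastatic, and HCl-002, called TN2 and labelled low metastatic. Each cell type had 2 TN1 libraries (tag_191 and tag_482) and 3 TN2 libraries (tag_367, tag_706 and tag_1341), 10 in all, and no tumour-free group was used here. The strain, the end point and the presence of a tumour were shared by every group, and whether a tag is 1 animal is not stated, so p-values measure the spread between these samples, which may in part be technical. Values for single libraries are always given in the order tag_191, tag_482, tag_367, tag_706, tag_1341.

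Glycolysis splits glucose to pyruvate in the cytosol, and lactate dehydrogenase and lactate export allow it to run without mitochondria. Neutrophils are known for few mitochondria, for relying on glycolysis and for keeping a glycogen store, while the pentose phosphate pathway supplies the NADPH that their oxidative burst consumes. Most steps have several isoenzymes encoded by separate genes, and the choice among them differs between tissues.

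The libraries held 7239218 to 11311370 estimated counts. RNA was amplified with Smart-seq2, a full-length method for small cell numbers. The 15 neutrophil markers, all measured, summed to 148783 to 230757 TPM in the neutrophil libraries and 948 to 9606 TPM in the monocyte libraries, and the 15 monocyte markers to 660.4 to 1574 TPM and 4765 to 10487 TPM. Csf3r, the receptor for the neutrophil growth factor, was at 2408 to 2796 TPM in neutrophils and 42.9 to 161 TPM in monocytes, and Ccr2, used for the sort, at 0.905 to 18.4 TPM and 128 to 340 TPM. The marker sums therefore matched both labels, and no marker of either list was at 0 in all libraries of the other cell type. Single monocyte markers did not all separate the cell types. Cd300e was at 5.65 to 35.7 TPM in neutrophils and 0.149 to 24.1 TPM in monocytes. Cx3cr1 was at 0.0904 TPM in monocyte library TN1 tag_482, below every neutrophil library. Monocyte library TN2 tag_706 stood apart, with the highest neutrophil marker sum of the monocyte libraries (9606 TPM, next TN2 tag_1341 with 4495 TPM), the lowest monocyte marker sum (4765 TPM) and the highest sums for endothelium (1925 TPM) and stroma (940.0 TPM). Alveolar macrophage markers summed to 11242 TPM in monocyte library TN2 tag_1341, 6223 TPM in tag_706, 2042 TPM in TN2 tag_367, and 622 and 121 TPM in the TN1 monocyte libraries. Most of the TN2 sums was Chil3 alone, at 11047 TPM in tag_1341, 5256 TPM in tag_706 and 1939 TPM in tag_367. Marco, Car4 and Fabp4 were at 0 TPM in monocyte library TN2 tag_1341 and at 16.8, 209.5 and 182.5 TPM in tag_706. The tag_482 libraries detected the fewest genes of their cell type and had the highest mitochondrial share of TPM, 3.0% in neutrophils and 19.9% in monocytes. Results that rest on these libraries are given with and without them.

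The pyruvate kinase gene Pkm (chromosome 9, 59656368 to 59679375, plus strand, GRCm38) shows the isoenzyme question at the level of the sequence. Its transcripts carry either of 2 mutually exclusive coding exons of 167 bases each, which give the M1 and M2 forms of the last enzyme of glycolysis. The M2 form is known from proliferating and immune cells, and the M1 form from adult muscle and brain. Both exons follow, read from the GENCODE M21 transcripts, with capitals at the 64 positions where they differ; the other 103 bases (61.7%) are the same.
M2 exon, chr9:59675568-59675734: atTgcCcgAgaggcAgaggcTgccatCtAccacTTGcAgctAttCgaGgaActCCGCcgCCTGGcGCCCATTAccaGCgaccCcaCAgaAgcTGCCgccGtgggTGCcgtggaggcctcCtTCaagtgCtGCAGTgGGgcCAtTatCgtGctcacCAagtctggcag
M1 exon, chr9:59675029-59675195: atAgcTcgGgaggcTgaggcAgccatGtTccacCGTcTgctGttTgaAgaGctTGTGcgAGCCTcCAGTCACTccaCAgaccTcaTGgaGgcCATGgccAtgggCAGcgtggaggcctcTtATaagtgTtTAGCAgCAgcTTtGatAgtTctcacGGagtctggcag
The transcript with the M2 exon held most Pkm reads in every library of both cell types. Its share of Pkm TPM was 94.0, 94.6, 95.7, 97.5 and 97.4% in neutrophils and 94.9, 98, 96.6, 93.4 and 91.7% in monocytes. The M1 transcript took the rest, 2.02% to 8.27%, with the highest share in monocyte library TN2 tag_1341 and the lowest in monocyte library TN1 tag_482. The ranges of the cell types overlapped. In monocytes the tumours overlapped as well, while in neutrophils both TN1 libraries had a lower M2 share than each TN2 library. These shares come from the authors' assignment of reads to whole transcripts, which also differ at their ends, and no test was planned for them.

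Monocytes and neutrophils differed in 19 of the 35 genes. In monocytes 14 were lower and 5 higher than in neutrophils, and 16 did not pass the threshold (edgeR, averaged over the tumours, 5 libraries against 5, adjusted p under 0.05 over 13384 genes). Of all genes tested, 12.4% were lower and 15.5% higher (27.9% together), so the share of lower genes was 40% among the 35 and the share of higher genes 14.3%. Normalised counts of the cell types did not overlap for 13 of the 35 that were lower and 5 that were higher (12.6% and 16% of all genes, 28.5% together). The median log2 difference, monocytes minus neutrophils, was -0.64 over the 35 and 0.46 over all genes tested. Because the 35 were chosen with earlier results of these data known, these shares and medians describe the list and do not test it. All 3 transporters were lower, as were 4 of 6 glycogen genes, while glycolysis was mixed (4 higher and 5 lower of 19) and the pentose phosphate genes split (1 higher and 2 lower of 7). The scale matters for genes with small differences: over 5273 genes with a mean of at least 10 TPM, the ratio of mean TPM lay 0.80 (log2) above the ratio of normalised counts. Tested on log2(TPM + 1) with limma, 11 of the 35 were higher and 11 lower (33.9% and 8.95% of all genes), 16 of the 19 edgeR calls were made in the same direction, and Pfkfb3, Pkm and Ugp2 lost theirs. Pfkl, Pgk1, Pgam1, Eno1, Ldha and Tkt were called higher on the TPM scale alone. In sorted bulk RNA, fewer cells of a type and less RNA per cell cannot be told apart.

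**Figure D1:**
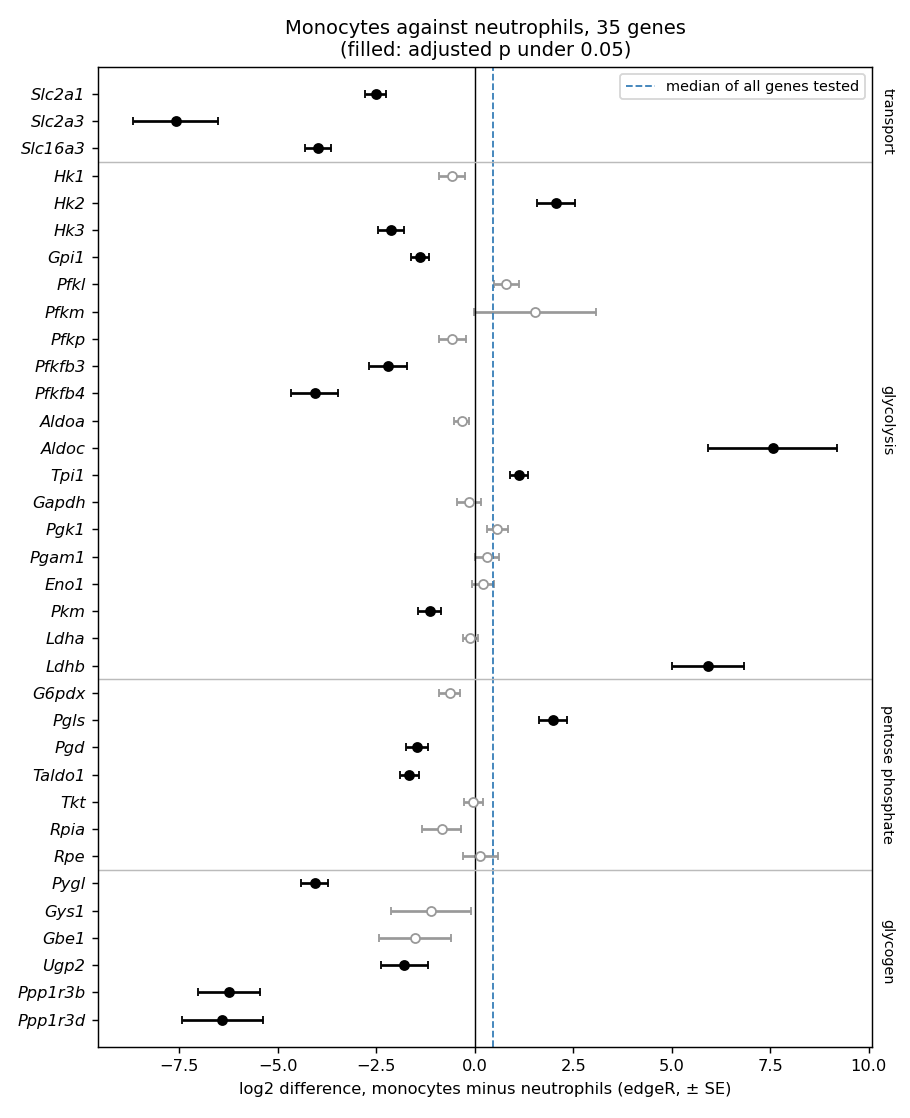
Log2 difference, monocytes minus neutrophils, for the 35 genes grouped by role (points, edgeR; bars, SE; 5 libraries against 5); filled points passed an adjusted p of 0.05 and the dashed line is the median of all genes tested (0.46). Slc2a3, Ppp1r3d and Ppp1r3b lie furthest to the left of zero, followed by Pygl, Pfkfb4 and Slc16a3 near -4, and Ldhb and Aldoc furthest to the right, where the fitted values rest on 0 counts in TN1 neutrophils.

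The carriers set the cell types apart most plainly. Slc16a3 (chromosome 11, 120948480 to 120960868, GRCm38), which encodes the lactate and proton exporter MCT4, was the most abundant of the 35 in neutrophils, at 5691 and 3416 TPM in TN1 and 3109, 4622 and 4230 TPM in TN2. Monocytes had 514 and 216 TPM in TN1 and 431, 502 and 689.5 TPM in TN2. The lowest neutrophil library was above the highest monocyte library, and the log2 difference, monocytes minus neutrophils, was -3.98 ± 0.34 (SE), edgeR adjusted p = 8.61e-05. Slc16a3 alone made up 30.0% to 43.7% of the summed TPM of the 35 in neutrophils and 4.20% to 9.43% in monocytes.

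Both glucose carriers were lower in monocytes as well. Slc2a1 (chromosome 4, 119108711 to 119137983), the gene of the widely expressed carrier GLUT1, was at 416 and 388 TPM in TN1 and 294, 355 and 329 TPM in TN2 in neutrophils. Monocytes had 125 and 63.8 TPM in TN1 and 97.5, 97.5 and 155 TPM in TN2, with no overlap and a log2 difference of -2.52 ± 0.26 (SE), edgeR adjusted p = 0.000172. Slc2a3 (chromosome 6, 122727809 to 122801640), the gene of the high-affinity carrier GLUT3, was at 538 and 433 TPM in TN1 and 305, 508 and 266 TPM in TN2 in neutrophils. Monocytes had 1.97 and 0.438 TPM in TN1 and 2.31, 24.1 and 0.464 TPM in TN2, so that 4 of the 5 libraries lay near zero and TN2 tag_706 stood alone. The log2 difference for Slc2a3 was -7.59 ± 1.08 (SE), edgeR adjusted p = 0.00083, and -8.83 ± 0.64 without monocyte library TN2 tag_706 (adjusted p = 5.68e-05). Slc2a3 in that library was 5.88% of the neutrophil mean and its neutrophil marker sum was 5.16%; in TN2 tag_1341 the same values were 0.113% and 2.42%, and the part of neutrophil RNA in the result was not tested. In neutrophils 85.2% to 96.5% of Slc2a3 TPM was on the coding transcript, and in monocytes that share was 0 in TN1 tag_482 and TN2 tag_1341, 58.7% in TN1 tag_191, 63.7% in TN2 tag_367 and 95.5% in TN2 tag_706, the last within the neutrophil range, and a transcript with a retained intron took 4.51% to 100%.

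The 2 glucose carriers were present in different proportions. Slc2a1 made up 43.6 and 47.2% in TN1 and 49.1, 41.1 and 55.3% in TN2 of the pair's summed TPM in neutrophils, close to an even split. In monocytes its share was 98.5 and 99.3% in TN1 and 97.7, 80.2 and 99.7% in TN2. The groups did not overlap, and the mean share differed by 47.8 percentage points (exact permutation p = 0.00794, adjusted p = 0.0218). That p is the smallest that 5 libraries against 5 allow, and it was adjusted over the 11 shares tested. Without monocyte library TN2 tag_706 the difference was 51.5 points.

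**Figure D2:**
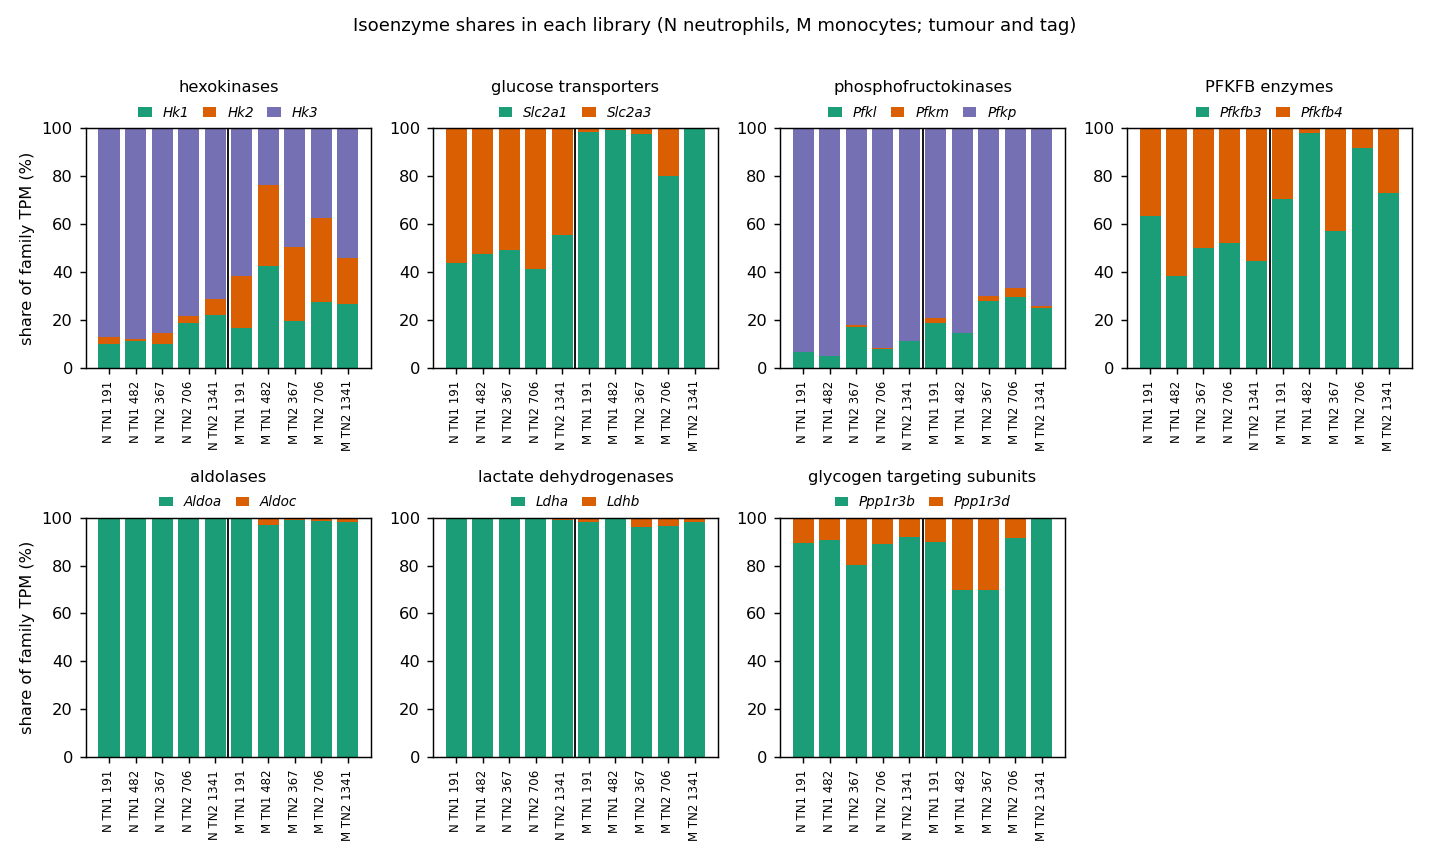
Share of each isoenzyme in the summed TPM of its family (percent, vertical axis) in each of the 10 libraries (horizontal axis; N neutrophils, M monocytes, with tumour and tag); the black line parts the cell types. Slc2a3 fills 44.7% to 58.9% of the carrier pair in neutrophils and 0.299% to 19.8% in monocytes, and Hk3 is the largest part of the hexokinases in each neutrophil library; Pfkfb4 rests on 1 transcript.

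Hexokinases phosphorylate glucose and hold it in the cell. Hk3 (chromosome 13, 55005985 to 55021385), the form typical of myeloid cells, was at 108 and 106 TPM in TN1 and 113, 60.8 and 74.8 TPM in TN2 in neutrophils. In monocytes it was at 43.0 and 11.7 TPM in TN1 and 41.4, 28.2 and 55.2 TPM in TN2, below every neutrophil library, with a log2 difference of -2.14 ± 0.33 (SE), edgeR adjusted p = 0.00128. Hk2 (chromosome 6, 82725025 to 82774454), the inducible form, ran the other way. It was at 3.64 and 1.27 TPM in TN1 and 6.17, 2.37 and 6.85 TPM in TN2 in neutrophils and 15.2 and 16.6 TPM in TN1 and 25.8, 26.3 and 19.8 TPM in TN2 in monocytes, again without overlap. Its log2 difference was 2.06 ± 0.48 (SE), edgeR adjusted p = 0.0107, and 1.43 ± 0.50 without both tag_482 libraries (adjusted p = 0.0935). Without the 2 monocyte libraries TN2 tag_706 and tag_1341 it was as large, 2.09 ± 0.61 (adjusted p = 0.05). Hk1, the housekeeping form, overlapped between the cell types (12.2 to 23.1 TPM in neutrophils and 11.7 to 27.0 TPM in monocytes); its log2 difference was -0.57 ± 0.33 with edgeR and 0.31 on log2(TPM + 1), neither past the threshold.

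As shares of hexokinase TPM, Hk3 held 87.2 and 87.9% in TN1 and 85.6, 78.4 and 71.4% in TN2 in neutrophils. In monocytes it held 61.6 and 23.8% in TN1 and 49.6, 37.6 and 54.1% in TN2. Hk3 was the largest of the 3 in every neutrophil library and in 4 of 5 monocyte libraries; in TN1 tag_482 it was Hk1. The mean share of Hk3 differed by -36.8 percentage points (exact permutation p = 0.00794, adjusted p = 0.0218), monocytes minus neutrophils, and that of Hk2 by 24.5 percentage points (exact permutation p = 0.00794, adjusted p = 0.0218). A transcript of 594 bases not annotated as coding held 20.9% to 77.7% of Hk2 TPM in neutrophils and 11.4% to 55.4% in monocytes. The Hk2 share is therefore not one of coding RNA alone. Hk1 differed by 12.3 percentage points (exact permutation p = 0.0397, adjusted p = 0.0485), and this call was lost in 7 of 10 analyses that left out 1 library.

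Phosphofructokinase commits sugar to glycolysis. Pfkp, the platelet-type subunit, was the main form in both cell types, at 186 and 88.2 TPM in TN1 and 102, 129.6 and 134 TPM in TN2 in neutrophils. Monocytes had 105 and 143 TPM in TN1 and 91.9, 107 and 149 TPM in TN2, overlapping with neutrophils (log2 difference -0.57 ± 0.34, edgeR adjusted p = 0.224). Pfkl, the liver-type subunit, was at 12.7 and 4.42 TPM in TN1 and 21.1, 11.2 and 16.8 TPM in TN2 in neutrophils. Its monocyte values were 24.9 and 23.8 TPM in TN1 and 36.4, 47.3 and 49.5 TPM in TN2; the TPM did not overlap, while the log2 difference of 0.80 ± 0.31 (SE), edgeR adjusted p = 0.08, missed the threshold. It passed with DESeq2 (adjusted p = 0.0299) and, with edgeR, without neutrophil library TN1 tag_191 (1.23 ± 0.29, adjusted p = 0.0133). The muscle-type Pfkm stayed at or below 6.32 TPM in every library. The mean share of Pfkp in the family was 90.2% ± 5.04 (SD, n = 5) in neutrophils and 75.2% ± 7.54 in monocytes, a difference of -15.0 percentage points (exact permutation p = 0.0159, adjusted p = 0.0218). The share of Pfkl differed by 13.6 percentage points (exact permutation p = 0.0159, adjusted p = 0.0218), and that of Pfkm by 1.46 percentage points (exact permutation p = 0.0714, adjusted p = 0.0786); Pfkm passed without monocyte library TN1 tag_482 (adjusted p = 0.0146).

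Pfkfb3 and Pfkfb4 make and degrade the sugar bisphosphate that activates phosphofructokinase. Pfkfb3 was at 54.6 and 37.4 TPM in TN1 and 34.2, 38.8 and 31.3 TPM in TN2 in neutrophils. In monocytes it was at 11.1 and 20.3 TPM in TN1 and 9.87, 52.2 and 24.9 TPM in TN2, where TN2 tag_706 lay within the neutrophil range and the others below it. The 20.3 TPM of TN1 tag_482 rested on 81.35 estimated counts, against 299.3 for the 11.1 TPM of TN1 tag_191. A transcript of 666 bases not annotated as coding held 2.38% to 26.4% of Pfkfb3 TPM in neutrophils and 3.09% to 97.6% in monocytes. Levels and shares of Pfkfb3 include it. The log2 difference of Pfkfb3 was -2.20 ± 0.49 (SE), edgeR adjusted p = 0.00849, and -1.03 on log2(TPM + 1) with limma (adjusted p = 0.0651). Pfkfb4 was at 31.5 and 60.5 TPM in TN1 and 34.5, 35.8 and 39.0 TPM in TN2 in neutrophils. Monocytes had 4.64 and 0.426 TPM in TN1 and 7.47, 4.79 and 9.28 TPM in TN2, far below each neutrophil library, and the log2 difference was -4.07 ± 0.59 (SE), edgeR adjusted p = 0.000899. Only 1 Pfkfb4 transcript could be summed here, and the authors' deposited table gives higher group means for the gene, 7.03 and 6.99 log2 in neutrophils (TN1, TN2) and 4.34 and 5.31 in monocytes. Those means lie closer together between the cell types than the sums used here, which differed by -3.10 on log2(TPM + 1). For Pfkfb3 the authors' deposited table gives 5.51 and 5.02 in neutrophils and 3.58 and 4.44 in monocytes. On those values Pfkfb4 exceeded Pfkfb3 in all 4 groups, whereas here Pfkfb3 held 49.6% ± 9.41 (SD, n = 5) of the pair in neutrophils and 78.0% ± 16.7 in monocytes, so the balance within this pair depends on the transcripts summed. The share difference passed (28.4 percentage points (exact permutation p = 0.0159, adjusted p = 0.0218)) but not without neutrophil library TN1 tag_482 (adjusted p = 0.0546).

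Of the genes in the middle of the pathway, Gpi1 was lower and Tpi1 and Aldoc higher in monocytes. Gpi1, which turns glucose phosphate into fructose phosphate, was at 306 and 501 TPM in TN1 and 401, 425 and 357 TPM in TN2 in neutrophils. Its monocyte values were 249 and 216 TPM in TN1 and 271, 205.7 and 289 TPM in TN2, all below the neutrophil libraries, with a log2 difference of -1.39 ± 0.22 (SE), edgeR adjusted p = 0.00152. Tpi1, which interconverts the triose phosphates, was at 38.2 and 45.8 TPM in TN1 and 59.0, 54.6 and 44.9 TPM in TN2 in neutrophils. It was at 161 and 167 TPM in TN1 and 180.1, 137 and 221 TPM in TN2 in monocytes, without overlap, and was higher by 1.12 ± 0.23 (SE), edgeR adjusted p = 0.0054; without both tag_482 libraries it was about as large, 1.05 ± 0.32 (adjusted p = 0.0591). Aldolase was almost all Aldoa, the muscle-type form, at 618 and 692 TPM in TN1 and 438, 444 and 486 TPM in TN2 in neutrophils. Monocytes had 753 and 579 TPM in TN1 and 766, 793 and 829 TPM in TN2, and the cell types overlapped with no call (log2 difference -0.33 ± 0.19 with edgeR, 0.41 on log2(TPM + 1)). Aldoc, the brain-type form, had 0 counts in 4 of 5 neutrophil libraries and 9 counts in TN2 tag_706, against 46, 224, 150, 174 and 172 counts in monocytes. It passed the test (edgeR adjusted p = 0.00927; 0.0625 without both tag_482 libraries). Averaged over the tumours, with TN1 neutrophils set to a floor of 3 counts, it was at least 47.2-fold higher in monocytes. Within TN2 alone, where the neutrophil counts were the 9 of 1 library, the log2 ratio was 4.88. Even so it was 0.457% to 3.16% of aldolase TPM in monocytes, at most 0.146% in neutrophils, a difference in the Aldoa share of -1.57 percentage points (exact permutation p = 0.00794, adjusted p = 0.0218).

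4 further genes of the lower pathway did not pass the edgeR threshold. Pgk1, an ATP-forming kinase, was at 63.8 to 74.0 TPM in neutrophils and 96.6 to 223 TPM in monocytes (log2 difference 0.57 ± 0.26, edgeR adjusted p = 0.124). The mutase gene Pgam1 was at 71.1 to 148 TPM and 165 to 309 TPM (0.31 ± 0.30, adjusted p = 0.462), and the enolase gene Eno1 at 207 to 295 TPM and 283 to 645 TPM (0.20 ± 0.28, adjusted p = 0.632). Eno1 shares its sequence with Eno1b and a processed pseudogene at over 99% identity, which held 44.6% of the combined counts in neutrophils and 45.6% in monocytes. Gapdh, the dehydrogenase that starts the energy-yielding steps, was at 55.4 to 109.6 TPM and 99.0 to 175 TPM (-0.15 ± 0.31, adjusted p = 0.747). Its level is uncertain in these tables: 73.9% to 96.8% of its TPM sat on a short transcript with a retained intron, and 34 near-identical copies held 17.5% of the combined counts in neutrophils and 13.9% in monocytes. Summing the copies into their genes left the counts of calls at 5 higher and 14 lower.

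Pyruvate kinase and lactate dehydrogenase end the pathway. Pkm was at 1085 and 1248 TPM in TN1 and 865, 975 and 1025 TPM in TN2 in neutrophils. Monocytes had 857 and 575 TPM in TN1 and 938, 581 and 1247 TPM in TN2, and TN2 tag_1341 reached the top of the neutrophil range. Its log2 difference was -1.15 ± 0.28 (SE), edgeR adjusted p = 0.0127; on log2(TPM + 1) it was -0.42 (limma adjusted p = 0.169), and the edgeR call was also lost without monocyte library TN1 tag_482 (-1.06 ± 0.38, adjusted p = 0.0879). Ldha, which favours the making of lactate, was at 615 and 540.1 TPM in TN1 and 688, 488 and 401 TPM in TN2 in neutrophils and 859.6 and 998 TPM in TN1 and 798, 692 and 777 TPM in TN2 in monocytes. Its TPM was higher in each monocyte library than in each neutrophil library, by little in the closest pair (692 against 688 TPM), while the edgeR log2 difference was -0.12 ± 0.19 (SE), edgeR adjusted p = 0.664.

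Ldhb (chromosome 6, 142490249 to 142507957), the heart-type subunit that favours the use of lactate, was far lower than Ldha in both cell types. Neutrophils had 0 and 0 TPM in TN1 and 2.34, 1.37 and 3.79 TPM in TN2. Monocytes had 15.6 and 6.495 TPM in TN1 and 31.2, 26.4 and 12.8 TPM in TN2, all above the neutrophil libraries. The gene passed the test (edgeR adjusted p = 0.0017), and averaged over the tumours, with TN1 neutrophils, which had no counts, at the floor of 3 counts, it was at least 15.8-fold higher in monocytes. Within TN2 alone, where both cell types had counts, the log2 ratio was 2.42. Ldhb was 0.647% to 3.76% of lactate dehydrogenase TPM in monocytes and 0 to 0.937% in neutrophils, so Ldha held at least 96.2% everywhere and its share differed by -1.99 percentage points (exact permutation p = 0.0159, adjusted p = 0.0218). The 15 monocyte markers in neutrophils, as a share of their mean in monocytes, were at 9.05, 12.4, 12.3, 8.77 and 20.9%. Ldhb was at 0, 0, 12.7, 7.39 and 20.5% by the same measure. Most of the marker sum in neutrophils was Ctss, at 419.5, 611.5, 598, 414 and 864 TPM. The sum is therefore not a measure of monocyte RNA alone. Ccr2 was at 3.37, 5.19, 3.89, 0.905 and 18.4 TPM in neutrophils, against 128 to 340 TPM in monocytes. The part of monocyte RNA was not tested.

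**Figure D3:**
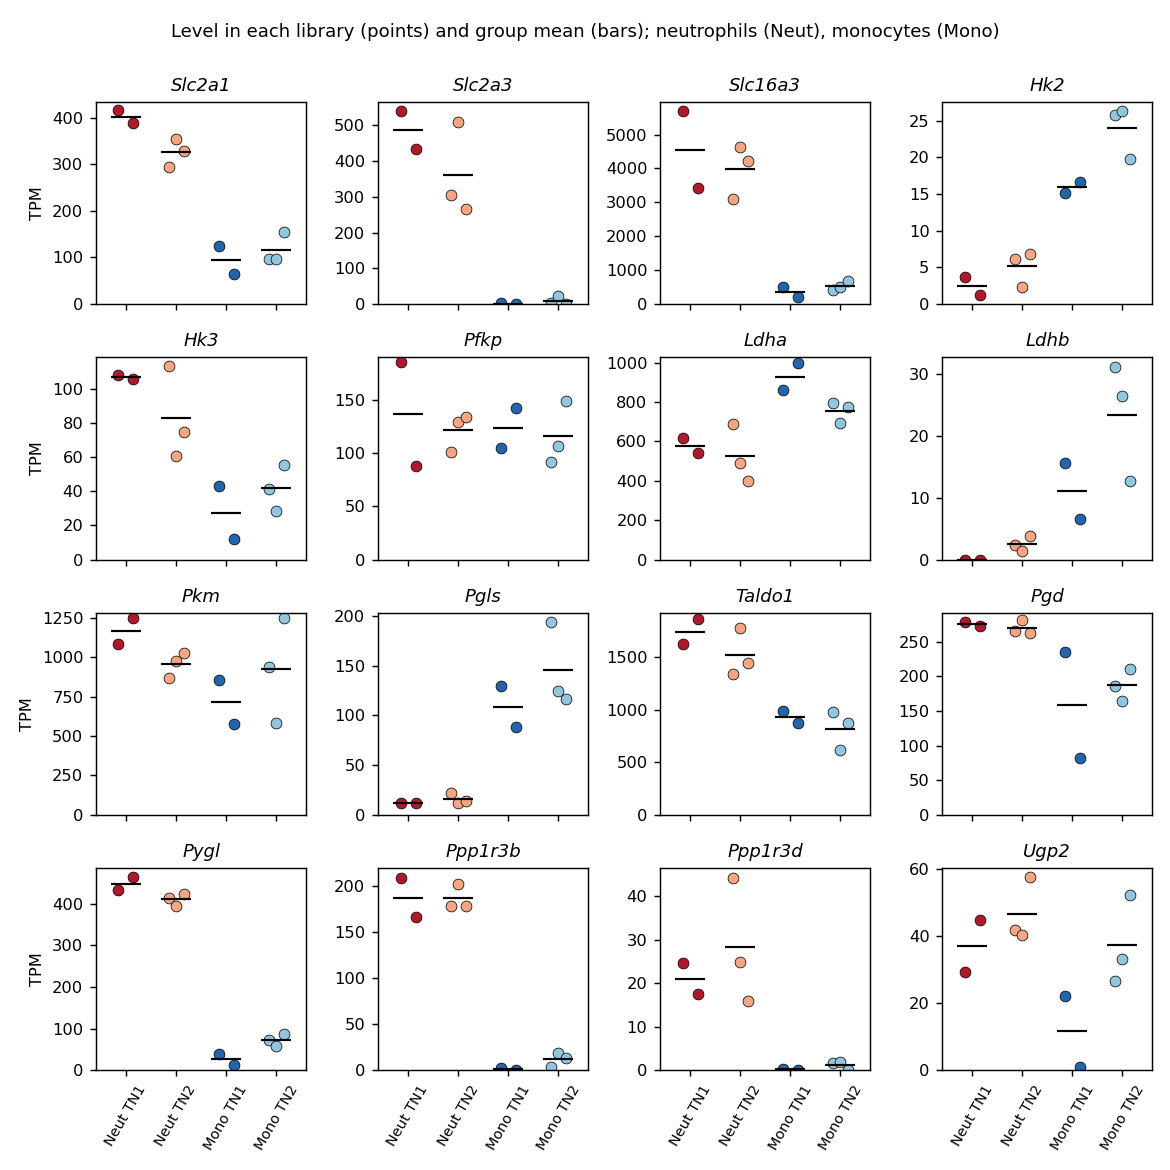
TPM (linear axes from zero) of 16 of the 35 genes in each library (points) and group means (bars) for neutrophils (Neut) and monocytes (Mono) under TN1 and TN2. Slc2a1, Slc2a3, Slc16a3, Hk3, Taldo1, Pgd, Pygl, Ppp1r3b and Ppp1r3d are higher in each neutrophil library than in each monocyte library, Hk2, Ldhb and Pgls lower, and the TN1 and TN2 points of a cell type mostly intermix.

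Among the pentose phosphate genes Taldo1, transaldolase of the sugar-exchanging branch, had the highest TPM in every library. It was at 1626 and 1862 TPM in TN1 and 1342, 1781 and 1445 TPM in TN2 in neutrophils. Monocytes had 984 and 869.8 TPM in TN1 and 977, 614 and 872 TPM in TN2, below each neutrophil library, with a log2 difference of -1.66 ± 0.24 (SE), edgeR adjusted p = 0.000911. Tkt, transketolase, its partner in that branch, was at 40.7 to 92.8 TPM in neutrophils and 65.5 to 146 TPM in monocytes with no edgeR call (log2 difference -0.04 ± 0.24) and a call for higher on log2(TPM + 1) (0.70, limma adjusted p = 0.0405).

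The oxidative branch makes NADPH, and its genes did not move together. G6pdx, the entry enzyme, overlapped between the cell types at 110.3 to 256 TPM and 114 to 230.0 TPM (neutrophils, monocytes; log2 difference -0.64 ± 0.26 (SE), edgeR adjusted p = 0.0978). Pgls (chromosome 8, 71592176 to 71601092), the lactonase of the second step, was at 11.5 and 12.2 TPM in TN1 and 22.0, 12.2 and 14.0 TPM in TN2 in neutrophils. Monocytes had 129 and 88.7 TPM in TN1 and 194, 125 and 117 TPM in TN2, with a wide gap to every neutrophil library and a log2 difference of 1.99 ± 0.35 (SE), edgeR adjusted p = 0.00272. Pgd, the second NADPH-forming dehydrogenase, was at 278 and 273 TPM in TN1 and 265, 282 and 263 TPM in TN2 in neutrophils, a narrow spread. In monocytes it was at 235 and 81.6 TPM in TN1 and 186, 165 and 210.0 TPM in TN2, lowest in TN1 tag_482, and was lower by a log2 difference of -1.47 ± 0.27 (SE), edgeR adjusted p = 0.0031. The isomerase Rpia and the epimerase Rpe were low, at 1.82 to 6.76 TPM and 3.75 to 9.97 TPM in neutrophils and 2.87 to 5.26 TPM and 5.25 to 21.6 TPM in monocytes, and neither passed. A transcript with a retained intron held 26.0% to 91.2% of Rpia TPM in neutrophils and 50.7% to 100% in monocytes.

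Glycogen genes separated the cell types nearly as plainly as the carriers, with 4 of 6 lower in monocytes and none higher. Summed, the 6 genes held 671 to 703 TPM in neutrophils and 13.8 to 166 TPM in monocytes. Pygl and Ppp1r3b made up most of the sum in every neutrophil library. Pygl (chromosome 12, 70190811 to 70231488), liver-type glycogen phosphorylase, which releases glucose units from glycogen, was at 432 and 464 TPM in TN1 and 413, 395 and 424 TPM in TN2 in neutrophils. Monocytes had 39.2 and 12.5 TPM in TN1 and 73.4, 57.6 and 87.4 TPM in TN2, all well below the neutrophil libraries, and the log2 difference was -4.07 ± 0.34 (SE), edgeR adjusted p = 8.21e-05. As a share of the neutrophil mean, Pygl in monocytes was at 9.22, 2.95, 17.2, 13.5 and 20.5%, while the neutrophil marker sum was at 0.510, 0.680, 0.763, 5.16 and 2.42%. The part of neutrophil RNA in these Pygl values was not tested.

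The subunits that bring protein phosphatase to glycogen, which favours its storage, showed the largest gaps among the glycogen genes. Ppp1r3b (chromosome 8, 35375739 to 35388139), the liver-type subunit, was at 209 and 166 TPM in TN1 and 178, 202.2 and 179 TPM in TN2 in neutrophils. In monocytes it was at 2.99 and 0.105 TPM in TN1 and 4.08, 19.1 and 13.8 TPM in TN2, highest in the 2 libraries with the most neutrophil marker RNA. Its log2 difference was -6.25 ± 0.79 (SE), edgeR adjusted p = 0.000447, and -6.95 ± 1.02 without those 2 libraries (adjusted p = 0.00264). Ppp1r3d, a related subunit, was at 24.6 and 17.5 TPM in TN1 and 44.3, 24.8 and 15.8 TPM in TN2 in neutrophils. Its monocyte values were 0.338 and 0.0459 TPM in TN1 and 1.78, 1.81 and 0 TPM in TN2, below each neutrophil library, with a log2 difference of -6.41 ± 1.03 (SE), edgeR adjusted p = 0.00158. Ppp1r3b was the larger of the pair in every library, at 88.2% ± 4.65 (SD, n = 5) of their TPM in neutrophils and 84.1% ± 13.8 in monocytes, and the share differed by -4.09 percentage points (exact permutation p = 0.532, adjusted p = 0.532).

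Of the 3 genes among the 35 that serve glycogen synthesis directly, Ugp2 was called lower in monocytes. Ugp2, which makes the sugar donor, was at 29.2 and 44.9 TPM in TN1 and 41.9, 40.5 and 57.6 TPM in TN2 in neutrophils and 22.1 and 1.08 TPM in TN1 and 26.5, 33.1 and 52.2 TPM in TN2 in monocytes. The cell types overlapped in TPM, and the edgeR log2 difference of -1.79 ± 0.60 (SE), edgeR adjusted p = 0.0489, lost its call without any 1 of 7 libraries. Gbe1, the branching enzyme, ranged over 3.96 to 8.13 TPM in neutrophils and 0 to 13.4 TPM in monocytes, and Gys1, the muscle-type synthase, over 1.10 to 3.50 TPM and 0 to 3.09 TPM; both had 0 TPM in monocyte library TN1 tag_482 and neither passed. Without monocyte library TN1 tag_191, which left tag_482 alone for that group, both were called lower (edgeR adjusted p = 0.00238 for Gbe1 and 0.00875 for Gys1). Gys1 was summed from 1 transcript, and the authors' deposited table has group means between 1.89 and 2.59 log2 for it. For Gbe1, single transcripts with a retained intron held up to 46.8% of TPM in a neutrophil library and up to 61.0% in a monocyte library. Levels of Gbe1 include them.

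Promoter sequence was compared because the 3 carriers and 4 of the 6 glycogen genes among the 35 were called lower in monocytes. RefSeq windows (GRCm38.p6) of 250 bases before the start were found for 33 of the 35 genes, 47 windows in all. None was found for Slc2a3 or Ppp1r3b, both called lower in monocytes with large differences. A RefSeq start can lie inside the GENCODE gene. The letters searched were ACGTG and GCGTG on either strand, the core bound by hypoxia-inducible factors. At least 1 match was present in 36 of 47 windows (76.6%) and in 38.6% of all 32851 windows of that length. The share was 75% for the genes lower in monocytes (16 windows), 83.3% for those higher (6 windows) and 76% for those not past the threshold (25 windows). The windows of the 35 genes also had more CG pairs, a median of 14 against 6 over all windows, and a median GC content of 60.4% against 52.4%. The windows of 3 genes that were lower in monocytes follow, 1 exporter, 1 importer and 1 glycogen enzyme, with capitals at the matches, 2 in each; a match describes the letters and is not evidence of binding.
Slc16a3, chr11:120948817-120949066, plus strand: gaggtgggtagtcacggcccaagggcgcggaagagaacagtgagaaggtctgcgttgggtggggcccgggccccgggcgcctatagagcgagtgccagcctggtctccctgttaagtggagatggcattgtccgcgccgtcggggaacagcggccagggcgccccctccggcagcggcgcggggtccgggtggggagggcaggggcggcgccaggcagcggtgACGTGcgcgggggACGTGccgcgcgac
Slc2a1, chr4:119108495-119108744, plus strand: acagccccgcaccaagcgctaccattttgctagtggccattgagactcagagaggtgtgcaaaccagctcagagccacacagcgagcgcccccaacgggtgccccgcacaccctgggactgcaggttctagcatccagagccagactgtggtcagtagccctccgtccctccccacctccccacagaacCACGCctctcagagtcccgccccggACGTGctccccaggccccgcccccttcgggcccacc
Pygl, chr12:70227684-70227933, minus strand: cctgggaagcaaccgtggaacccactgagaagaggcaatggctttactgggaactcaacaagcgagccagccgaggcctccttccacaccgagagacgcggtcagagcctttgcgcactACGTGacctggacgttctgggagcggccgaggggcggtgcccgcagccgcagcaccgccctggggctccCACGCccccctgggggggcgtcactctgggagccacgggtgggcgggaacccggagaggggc

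Other genes of sugar metabolism, 114 in 7 lists, were counted in the same comparison. Of these 85 were tested, and 11 were higher and 10 lower in monocytes, shares close to those over all genes (15.5% and 12.4%). Among other sugar and lactate carriers 4 were higher and 1 lower of 11. Slc2a6, a further hexose carrier, was lower (log2 difference -2.83 ± 0.29, SE as in the values that follow, 436 to 887 TPM in neutrophils and 137 to 251 TPM in monocytes). Bsg, the chaperone that takes MCT4 to the membrane, was higher (0.80 ± 0.26, 40.5 to 91.9 TPM and 171 to 274 TPM), as were Slc37a2 (4.28 ± 1.19), Slc2a8 (2.80 ± 0.87) and Slc2a9 (4.30 ± 1.39). Other glycogen genes gave 1 higher and 2 lower of 15: Pygb, brain-type phosphorylase, was higher (2.21 ± 0.58), and Phkg2, a catalytic subunit of phosphorylase kinase, and Pgm2 were lower (-1.37 ± 0.26 and -1.58 ± 0.47).

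Among regulators of glucose use, 2 were higher and 5 lower of 20. Txnip, a restraint on glucose uptake, was lower (-4.10 ± 0.47, 463 to 908 TPM in neutrophils and 30.3 to 201.6 TPM in monocytes), together with its relative Arrdc4 (-2.58 ± 0.38) and the AMP-activated kinase subunits Prkag1 (-1.65 ± 0.22) and Prkab1 (-1.84 ± 0.30). Myc was higher (5.58 ± 0.93). Other pentose phosphate and ribose genes gave 2 higher of 9 (Dera, 3.49 ± 0.92, and Prpsap1, 1.74 ± 0.58), and genes of pyruvate entry to mitochondria 2 higher of 14 (Pdk3, 1.29 ± 0.36, and Dlat, 2.84 ± 0.94). Of 12 other glycolysis genes 2 were lower, Adpgk (-1.86 ± 0.62) and the testis-type Ldhc, which was at 0.0943 to 8.97 TPM in neutrophils and 0 in every monocyte library. Of 4 gluconeogenesis genes the smallest edgeR adjusted p was 0.0656, for Pcx. The edgeR threshold was adjusted p under 0.05 over all genes tested, as for the 35.

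TN2 was then compared with TN1 within each cell type, the study's own question. With 2 libraries against 3, an exact permutation test cannot go below p = 0.1, so the fit over all genes was used. None of the 35 genes passed the edgeR threshold in neutrophils, in monocytes or for the difference between these effects, and none of all 13384 genes did (0%). In simulated counts the fit called 28.4% of changes of 3 log2 between the tumours in neutrophils. A missing call is therefore not evidence of no change. At an unadjusted p under 0.05, 1 of the 35 in neutrophils (4.67% of all genes), 3 in monocytes (2.83%) and 1 for the difference (3.53%) were seen. DESeq2 called 1 of the 35, Ldhb, in neutrophils (0.74% of 11756 genes), and none of the 35 in monocytes or for the difference. Normalised counts of TN1 and TN2 did not overlap for 9 of the 35 in neutrophils (25.7%, against 17.7% of all genes), 5 higher and 4 lower in TN2 (11.8% and 5.91% of all genes). In monocytes the count was also 9 (25.7%, against 20.1%), 5 higher and 4 lower (12.4% and 7.73% of all genes). The authors' deposited table has p under 0.05 for 3 of the 35 in each cell type and an adjusted p of 1 for all.

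In neutrophils the smallest p belonged to Ldhb. Its estimated counts were 0 and 0 in TN1 and 20.7, 14 and 31 in TN2, so the tumours did not overlap, at counts close to the limit of detection. With TN1 at the floor of 3 counts, Ldhb was at least 14.8-fold higher in TN2. Its edgeR p was 0.000693 and its edgeR adjusted p 0.741, and over its alternatives the adjusted p ran from 0.0106 with DESeq2 to 1. Neutrophil library TN2 tag_1341, the highest for Ldhb, also had the highest monocyte marker sum of the neutrophil libraries (1574 TPM), and this was not tested further. The next 4 by p were Aldoc, whose 9 counts all came from 1 TN2 library, Pfkl (log2 difference, TN2 minus TN1, 0.80 ± 0.45), G6pdx (-0.66 ± 0.37) and Tkt (-0.55 ± 0.33), each with an edgeR adjusted p of 0.943. G6pdx was at 184 and 256 TPM in TN1 and 142, 110.3 and 125 TPM in TN2, higher in both TN1 libraries than in each TN2 library. Tkt was at 65.4 and 92.8 TPM in TN1 and 59.1, 55.5 and 40.7 TPM in TN2, likewise higher in both TN1 libraries. Slc16a3, Slc2a1, Hk3 and Pygl, the genes that set neutrophils apart, had log2 differences of -0.06 ± 0.42, -0.16 ± 0.34, -0.26 ± 0.45 and -0.07 ± 0.42.

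In monocytes the leading genes were Ppp1r3b, Pygl, Ldha, Pfkfb3 and Slc2a3. Ppp1r3b and Pygl, with the library values given above, were higher in each TN2 library than in each TN1 library, by 2.71 ± 0.97 and 1.18 ± 0.44 (log2 ± SE). Their unadjusted p from edgeR were 0.0192 and 0.0223, with an adjusted p of 1 for each. Both were lowest in the TN1 tag_482 library: without it, which left tag_191 as the only TN1 monocyte library, the log2 differences were 1.64 ± 0.67 and 0.60 ± 0.51 (adjusted p = 1 for each). Without the 2 TN2 libraries with the most neutrophil marker RNA, tag_706 and tag_1341, which left tag_367 as the only TN2 monocyte library, they were 1.28 ± 1.04 and 1.34 ± 0.52. Without TN1 tag_191, which left tag_482 alone, they were 6.22 ± 0.96 (adjusted p = 0.0325) and 2.04 ± 0.56 (adjusted p = 0.181), and Gbe1, at 0 in tag_482, was called too (adjusted p = 0.0364). In each of these 3 fits the lone library is assumed to vary like the other groups. All 6 glycogen genes had a positive log2 difference, with a median of 1.56 against 0.22 over all genes; the same library was lowest for each of the 5 glycogen genes other than Ppp1r3d, for which TN2 tag_1341 was at 0. Alveolar macrophage marker sums in monocytes also stood above TN1 in all 3 TN2 libraries (2042, 6223 and 11242 TPM against 622 and 121 TPM). Chil3 made up most of those TN2 sums (1939, 5256 and 11047 TPM). Single markers of that list were not uniform: Ear1 and Ear2 were higher in each TN2 library, whereas Mrc1 was lower in tag_367 and tag_1341 than in TN1. The TN1 tag_482 library had the highest dendritic cell (941 TPM) and erythroid (399 TPM) sums of the monocyte libraries. The part of such cells in these values was not tested.

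Ldha was lower in each TN2 monocyte library than in each TN1 library, with a log2 difference of -0.66 ± 0.27. Its unadjusted edgeR p was 0.0344 and its adjusted p 1. Pfkfb3 and Slc2a3 had positive differences (1.46 ± 0.69 and 2.24 ± 1.22), both with TN2 tag_706 as the highest library; without it they were 0.72 ± 0.59 and -0.21 ± 0.70. Endothelial, stromal and neutrophil marker sums were also highest in that library, and their part was not tested. For the difference between the tumour effects in the 2 cell types, the smallest p were those of Ldhb (0.00281), Ppp1r3b (0.0609), Pygl (0.0622), Aldoc (0.099) and Slc2a3 (0.136), each with an edgeR adjusted p of 1. Without monocyte library TN1 tag_191 Ppp1r3b was called for this difference (6.24 ± 1.03, adjusted p = 0.0469), and without TN2 tag_706 the difference for Slc2a3 fell from 2.59 ± 1.59 to 0.26 ± 0.92.

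Isoenzyme shares were set side by side for the tumours. In neutrophils the Hk3 share was 87.2 and 87.9% under TN1 and 85.6, 78.4 and 71.4% under TN2, without overlap, and the Pfkp share was 93.3 and 95.2% against 82.2, 91.6 and 88.9%. In monocytes Hk3 overlapped (61.6 and 23.8% against 49.6, 37.6 and 54.1%) and Pfkp was 79.2 and 85.7% under TN1 against 70.1, 66.6 and 74.5% under TN2. Pfkp was thus the lower share under TN2 in both cell types, with Pfkl as its counterpart, and no test was made with 2 libraries against 3.

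**Figure D4:**
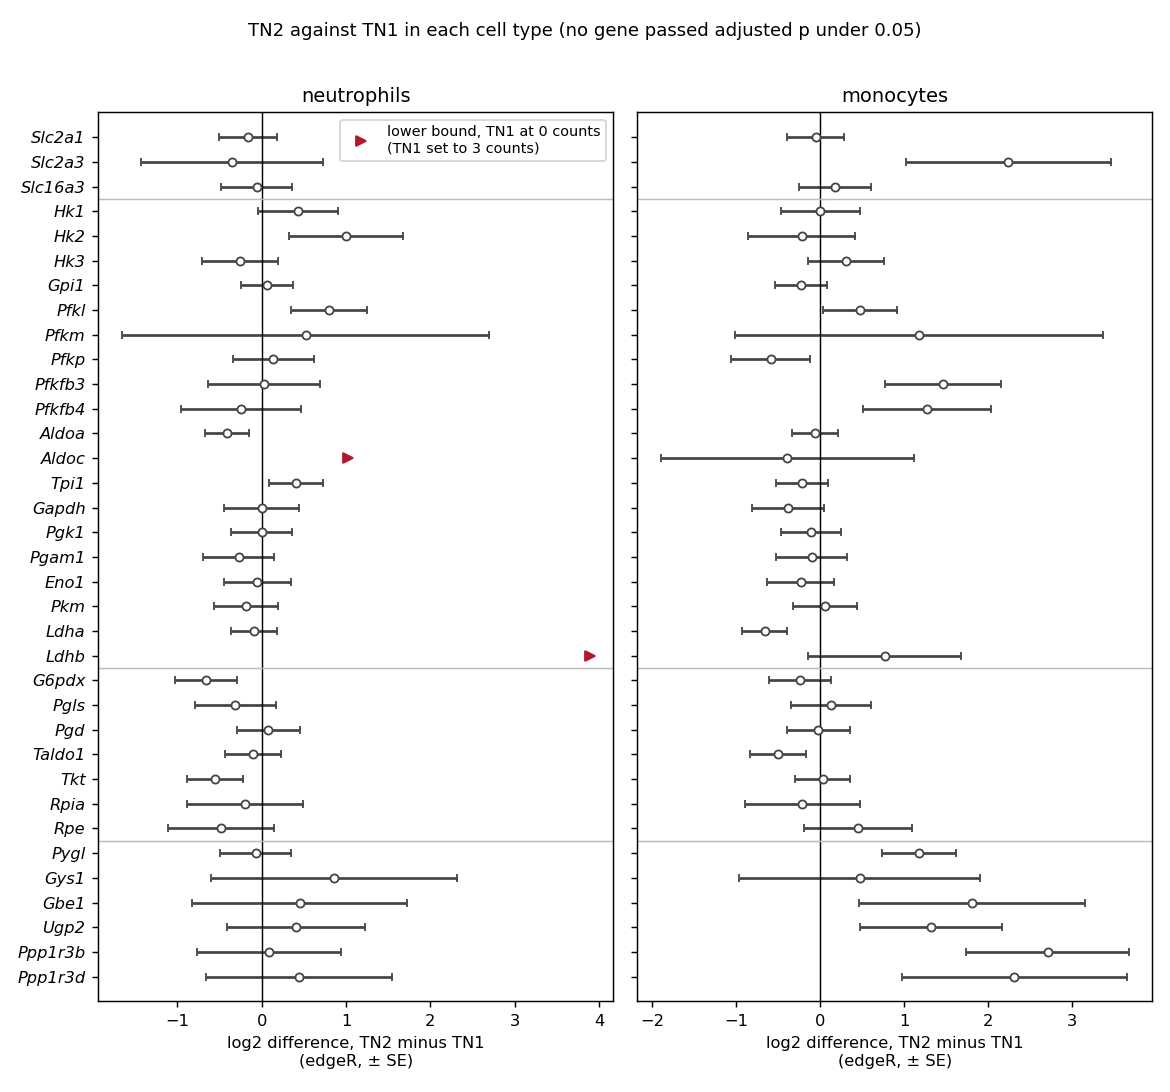
Log2 difference, TN2 minus TN1, for the 35 genes in neutrophils (left) and monocytes (right; points, edgeR; bars, SE; 3 libraries against 2; the axes differ); triangles are lower bounds for 2 genes with 0 counts in TN1 neutrophils. The bounds take the TN2 counts as exact. For Aldoc those are the 9 counts of 1 library, so its bound is not firm. Most points lie within 1 of zero, the 6 glycogen genes in monocytes are all to the right, and no gene passed the threshold.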

How the data were processed

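RNA was sequenced from 10 libraries of lung neutrophils and CCR2+ monocytes. Reads were quantified with kallisto 0.42.3 on GRCm38, per the submitters' processing notes, and the authors deposited an estimated count and a TPM, a length-normalised share of each library's transcripts, for each transcript. Their table for each cell type holds log2 group means, log2 fold changes and p-values, per the file headers; how those were made is not given in the sources used here. Transcripts were summed to genes with the GENCODE M21 annotation, leaving 1.94% to 3.59% of counts unmatched.

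Estimated counts were rounded and tested with edgeR 4.0.16 (quasi-likelihood, TMM, 4 groups, 10 libraries, genes past a filter with a total of at least 10 counts, 13384 genes, Benjamini-Hochberg over all of them, threshold 0.05). The SE was taken from the F statistic. Isoenzyme shares are percentages of a family's summed TPM per library, compared by a two-sided exact permutation test over 5 against 5 libraries (smallest p 0.00794). Totals of 7239218 to 11311370 counts set the depth, a group at 0 was given a floor of 3 counts over the group, and reads without molecular identifiers are not independent molecules, so this floor covers counting error alone. Libraries were grouped by title. No 2 replicates agreed within sampling noise. Alternatives were edgeR with RLE factors or without the filter, DESeq2 1.42.0, limma 3.58.1 on log2(TPM + 1) and log2(TPM + 0.1), length-scaled counts, the tag as a block, and leaving out libraries; 2 more, without 2 monocyte libraries and with near-identical copies summed, were chosen after seeing the data. The fit was tested on simulated counts with known changes of 1, 2 and 3 log2. It called 3.03%, 34.3% and 62.7% of these between cell types. For TN2 against TN1 in neutrophils it called 0%, 16.4% and 28.4%. The 35 genes and all lists were chosen with earlier results of these data known. All 35 genes were named between cell types, with values in every library for those past the threshold and the most abundant isoenzyme of each family, and the 5 with the smallest p where none passed; of each other list up to 5 called genes with the smallest p were named. Slc16a3, Slc2a1, Hk3 and Pygl in neutrophils and Gbe1 in monocytes in the tumour comparisons, and Pcx, were named after their values were seen. Sequences came from RefSeq promoters and GENCODE transcripts.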

Additional observations from a re-analysis of the deposited data

Results flagged for a closer look

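In 7 of 70 groups of 5 libraries (the 35 genes in each cell type), 1 library lay far from the other 4 by Dixon's ratio, which chance does in about 1 in 20 groups, or 3.5 of 70. Slc2a3 was at 24.1 TPM in monocyte library TN2 tag_706 and at 0.438 to 2.31 TPM in the other monocyte libraries. Pgam1 was at 308.8 TPM in monocyte library TN2 tag_1341, against 165 to 200.4 TPM. In neutrophils, library TN1 tag_482 was high for Pfkfb4 (60.5 TPM, the others 31.5 to 39.0 TPM) and for Pgk1 (74.0 TPM, the others 63.8 to 66.1 TPM). Hk1 was at 23.1 TPM in neutrophil library TN2 tag_1341, against 12.2 to 14.3 TPM. Pgls was at 22.0 TPM in neutrophil library TN2 tag_367, against 11.5 to 14.0 TPM. Aldoc was at 0.65 TPM in neutrophil library TN2 tag_706 and at 0 in the other neutrophil libraries.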

How the results depend on the processing

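Between cell types, 13 of the 19 calls among the 35 genes held under each of the 20 alternatives run. The number of higher genes was 11 on log2(TPM + 1), where 33.9% of all genes were higher, and 12 on log2(TPM + 0.1). The share over all genes is not given here for the latter, so that count does not set the 35 apart. The fit without both tag_482 libraries left 1 library in each TN1 group. Without them Tpi1 (1.05), Aldoc (6.70) and Pkm (-1.07) lost their calls at values close to those with all libraries, and Hk2 (1.43) and Ugp2 (-1.22) at smaller ones. Direction turned, without an edgeR call, on log2(TPM + 1) and log2(TPM + 0.1) for Hk1 (0.31 and 0.33), Aldoa (0.41 and 0.41), Gapdh (0.66 and 0.67), Ldha (0.62 and 0.62), G6pdx (0.06 and 0.06), Tkt (0.70 and 0.71) and Rpia (0.02 and 0.05). Without monocyte libraries TN2 tag_706 and tag_1341 Gapdh was at 0.09 and Tkt at 0.16, and without both tag_482 libraries Tkt was at 0.18. Leaving out 1 library gave ranges of -0.36 to 0.01 for Gapdh, -0.25 to 0.10 for Tkt, -2.36 to 4.74 for Pfkm and -0.26 to 0.38 for Rpe. Between tumours, the count of higher genes was 1 in neutrophils with DESeq2, and with 1 library left out it ran from 0 to 2 in monocytes and from 0 to 1 for the difference of the effects; Aldoc in neutrophils ran from 0.00 to 5.60, Slc2a3 in monocytes from -0.21 to 3.34, and the Aldoc difference of the effects was 0.18 on log2(TPM + 1).

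Of the 11 shares, 9 passed between cell types (7 to 9 with 1 library left out, 8 without both tag_482 libraries), and the Ppp1r3b share difference turned to 0.0861 points without both tag_482 libraries. Tags are shared by the cell types but are not stated to be animals: same-tag deviations correlated at 0.089 for the TN1 tags, whose 2 deviations mirror each other and count as 1 value, and at -0.057, 0.380 and 0.342 for tag_367, tag_706 and tag_1341. Tag_367 matched best with tag_706, and the other TN2 tags with their own number. With the tag as a replicate block edgeR gave 5 higher and 14 lower genes, the same 19 calls. The paired exact sign-flip test gave 0 shares past the threshold, since it cannot go below p = 0.0625. Tags are not shared across tumours, so no block was possible between tumours within a cell type. Depth limits Aldoc and Ldhb in neutrophils, where groups at 0 counts allow bounds only.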
